A study of Mus musculus with 2 samples.

Results

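Pleiotrophin (Ptn) and midkine (Mdk) are small secreted growth factors that bind heparan sulfate chains, and the syndecans (Sdc1 to Sdc4) are membrane proteins that carry such chains on the cell surface. These 6 genes, of 27998 in the count table, were followed through every cell class of the mouse pancreatic islet in a wild-type (WT) and a ghrelin-knockout (GKO) library. They were selected by gene symbol with earlier results of these same libraries known, among them a higher Ptn level in GKO δ cells, so all levels and ratios below describe the libraries and none of them is tested.

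Islets from 4 male mice per genotype were pooled, dispersed, sorted by FACS for viable single cells and sequenced as 1 library per genotype on the 10x Genomics 3′ platform. The mice were 8 weeks old, fed standard chow and littermates on a C57BL/6N background, and the GKO animals (line GKO1) inherited the ghrelin deletion, which is not limited to the islet. The study sequenced these cells to look for molecules that might accompany the larger islets of mice without ghrelin, a stomach hormone whose receptor Ghsr is found in δ cells. Because each genotype is 1 pool, the spread between mice is unknown, and genotype, pool and library cannot be told apart.

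Pleiotrophin and midkine act through several receptors, among them the receptor phosphatase encoded by Ptprz1, the kinase Alk, low-density lipoprotein receptor-related proteins and integrins, and cell-surface heparan sulfate holds them near the cell. In connective tissue both are products of fibroblast-like cells and of developing mesenchyme. The syndecans share a short cytoplasmic tail that ends in a stretch bound by PDZ-domain proteins such as syntenin (Sdcbp), whereas their outer parts differ, and enzymes of the Adam and Mmp families can shed those outer parts from the cell.

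Annotation in GENCODE vM21 (build GRCm38, the assembly also called mm10) places Ptn on the minus strand of chromosome 6 (36714929 to 36810220), Mdk on the minus strand of chromosome 2 (91929805 to 91932297), Sdc1 on the plus strand of chromosome 12 (8771323 to 8793715), Sdc2 on the plus strand of chromosome 15 (32920723 to 33034935), Sdc3 on the plus strand of chromosome 4 (130792537 to 130826319) and Sdc4 on the minus strand of chromosome 2 (164424247 to 164443887). Sdc3 overlaps 2 annotated genes, Gm12970 and Gm26716, neither of them on its own strand, and no annotated gene overlaps the other 5. The tail that makes the syndecans a family is shown here by the last 36 coding bases of each transcript, read 5′ to 3′ up to the base before the stop codon, with capitals where all 4 genes carry the same base at that distance from the stop.
Sdc1: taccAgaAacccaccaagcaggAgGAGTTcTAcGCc
Sdc2: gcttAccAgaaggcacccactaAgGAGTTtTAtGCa
Sdc3: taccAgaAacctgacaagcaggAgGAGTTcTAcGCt
Sdc4: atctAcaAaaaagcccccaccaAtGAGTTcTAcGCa
In build GRCm38 these bases lie in coding exons at chr12:8791769-8791804 (plus strand), chr15:33032502-33032537 (plus), chr4:130822771-130822806 (plus) and chr2:164426089-164426124 (minus). All 4 genes agreed at 12 of the 36 positions, most of them at the 3′ end. Sdc1 and Sdc3 were identical at 32 positions and Sdc2 and Sdc4 at 25, against 14 for Sdc2 with either Sdc1 or Sdc3 and 19 for Sdc4 with either of those.

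The WT library held 7792 barcodes and 158067110 unique molecular identifiers (UMIs, which count captured RNA molecules), and the GKO library held 7289 and 103511757. Cells under 500 genes or over 10% mitochondrial UMIs were set aside, which left 7100 in WT and 6346 in GKO, with medians of 15412 and 11404 UMIs. A cell was called β-, α-, δ- or γ-led when insulin (Ins1 plus Ins2), Gcg, Sst or Ppy was its leading hormone and made up at least 10% of its UMIs. This gave, in WT and GKO, 2265 and 872 β-led, 1048 and 1397 α-led, 1414 and 1003 δ-led, and 717 and 669 γ-led cells. The 1656 and 2405 cells without such a hormone were clustered without the 6 genes and named by markers, and 11 classes had at least 50 cells in each library. The libraries shared 18 barcode sequences. As a check of the labels, Ghrl had 43634 UMIs in WT, of which 42995 lay in the 10 highest barcodes, and 280 in GKO, all of them in the 10 highest.

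Levels are given in CPM, the UMIs of a gene per 1000000 UMIs of all cells of a class in a library. This total includes the hormones except where stated, so a larger hormone share lowers the CPM of the other genes of a class. Brackets hold exact 95% Poisson intervals for levels and Clopper-Pearson intervals for shares of cells, and ratios carry exact conditional intervals; all cover counting error only. Capture can differ between genes in 3′ counting, so a gene is compared between classes and libraries, and its CPM is not set against that of another gene. Shares of syndecan UMIs join several genes and are likewise for comparison between classes and libraries. A difference is called past the limit when the ratio between the libraries is at least 1.5 either way, 0.58 on the log2 scale, and the class holds at least 20 UMIs of the gene over both libraries.

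**Figure D1:**
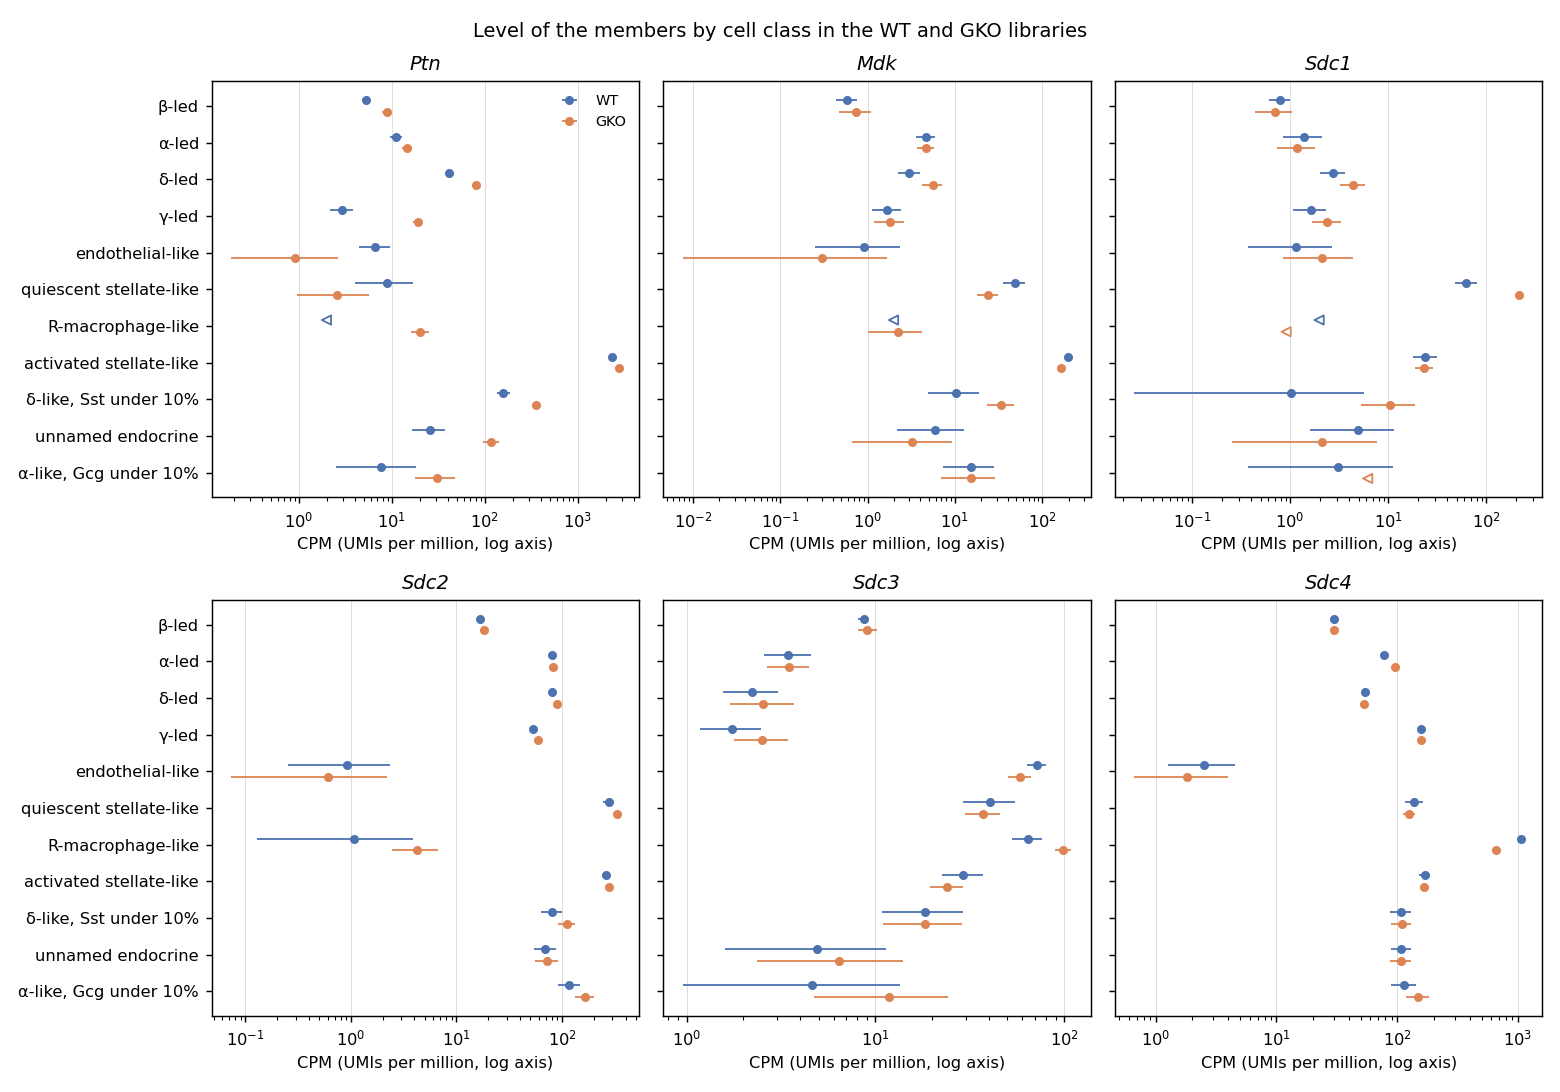
Level of each of the 6 genes in the 11 cell classes with at least 50 cells per library, in CPM on a log axis, with 95% Poisson intervals (WT blue, GKO orange, open triangles marking the upper limit where no UMI was found). Ptn stands highest in activated stellate-like cells in both libraries and Sdc4 in R-macrophage-like cells, and endothelial-like cells hold Sdc3 but almost no Sdc2 or Sdc4.

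Ptn was by far most abundant in activated stellate-like cells, the fibroblast-like cells of the islet that carry Pdgfra and collagen genes. In that class 4993 Ptn UMIs in 237 WT cells gave 2309 CPM (2246 to 2374), and 11616 UMIs in 522 GKO cells gave 2792 CPM (2742 to 2843). The class made up 3.34% of WT and 8.23% of GKO cells and held 73.8% and 81.2% of all Ptn UMIs in kept cells. At least 1 Ptn UMI was present in 84.0% of its WT cells and 83.3% of its GKO cells.

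The 4 clusters of the class differed among themselves. Cluster 4, led by Stc2 and Cilp, held 3185 CPM of Ptn in WT and 3560 in GKO. Cluster 5, led by Wif1 and Igfbp2, held 2412 and 3567 CPM, a log2 ratio of 0.56 (0.50 to 0.63). Cluster 17, led by Vtn and Sfrp2, stood at 820.2 and 937.0 CPM, and cluster 15, led by Has1 and Lrrn4cl, at 403.8 and 440.8. The spread between clusters of a library was thus wider than the difference between the libraries in any cluster. The summed log2 ratio of the class was 0.27 (0.23 to 0.32), short of the 1.5-fold limit. None of the 6 genes passed the limit in this class, where 8.36% of the genes tested were higher and 7.52% lower.

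Only the small Gpr37l1+ class came near that level. Gpr37l1+ stellate-like cells held 1418 CPM of Ptn in 15 WT cells and 1326 CPM in 12 GKO cells. R-macrophage-like cells (Cx3cr1, C1qa) had no Ptn UMI in 178 WT cells, which by the limit of 3 counts allows up to 1.69% of cells with a UMI, and 82 UMIs in 7 of 425 GKO cells. Of these 82, 97.6% lay in 5 cells and 65 in a single cell. B cell-like, T cell-like, acinar-like, S100a9+-like and Apln+ cells had no Ptn UMI in either library, on 4 to 45 cells each. By the same limit this allows from 6.67% of cells with a UMI, in 45 GKO B cell-like cells, to 75% in 4 WT S100a9+-like cells. Absence cannot be read from classes this small.

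Among hormone-led cells Ptn was highest in δ-led cells. In δ-led cells, which secrete somatostatin, 686 UMIs gave 41.05 CPM (38.0 to 44.2) in WT, and 873 UMIs gave 79.5 CPM (74.3 to 84.95) in GKO. β-led cells stood at 5.29 and 8.81 CPM, α-led cells at 11.1 and 14.5, and γ-led cells at 2.90 and 18.96. In each library the δ-led interval lay above those of the other 3 hormone-led classes.

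The GKO level in δ-led cells was 1.94 times the WT level, a log2 ratio of 0.95 (0.81 to 1.10). This is the contrast for which Ptn had been singled out, and 4.72% of the genes tested in δ-led cells were higher by as much as the limit and 4.26% lower. A Ptn UMI was found in 358 of 1414 WT cells, 25.3% (23.1 to 27.7), and in 382 of 1003 GKO cells, 38.1% (35.1 to 41.2). After each cell was thinned to 5000 UMIs the shares were 14.7% and 25.7%. For comparison, 0% and 1.65% of R-macrophage-like cells had a Ptn UMI, at median depths of 10082 and 8794 UMIs against 11065 and 10148 in δ-led cells.

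The δ cell signal was spread over many cells. In WT, 209 δ-led cells had 1 Ptn UMI, 82 had 2 and 67 had 3 or more, with a highest count of 14. In GKO, 194 had 1, 83 had 2 and 105 had 3 or more, with a highest count of 12. The 5 highest cells held 7.87% of the Ptn UMIs of the class in WT and 5.84% in GKO.

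In β-, α- and γ-led cells Ptn lay in far fewer cells, and 2.67% to 8.37% of them held a UMI. The 5 highest cells carried 40.8% and 53.3% of the Ptn UMIs of β-led cells in WT and GKO, 83.2% and 53.9% of those of α-led cells, and 46.0% and 51.2% of those of γ-led cells. Of these UMIs, 331 of 471 and 220 of 289 in β-led, 137 of 161 and 190 of 271 in α-led, and 19 of 50 and 223 of 295 in γ-led cells lay in cells that also held a UMI of an activated stellate marker (Pdgfra, C3, Col1a1, Col1a2, Col3a1, Dcn, Lum, Dpt; Sparc, the ninth on the list, marks several cell types and was left out). Without the cells that held any such UMI, the levels were 2.23 and 3.64 CPM in β-led, 2.09 and 5.94 in α-led, and 2.35 and 7.13 in γ-led cells.

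**Figure D2:**
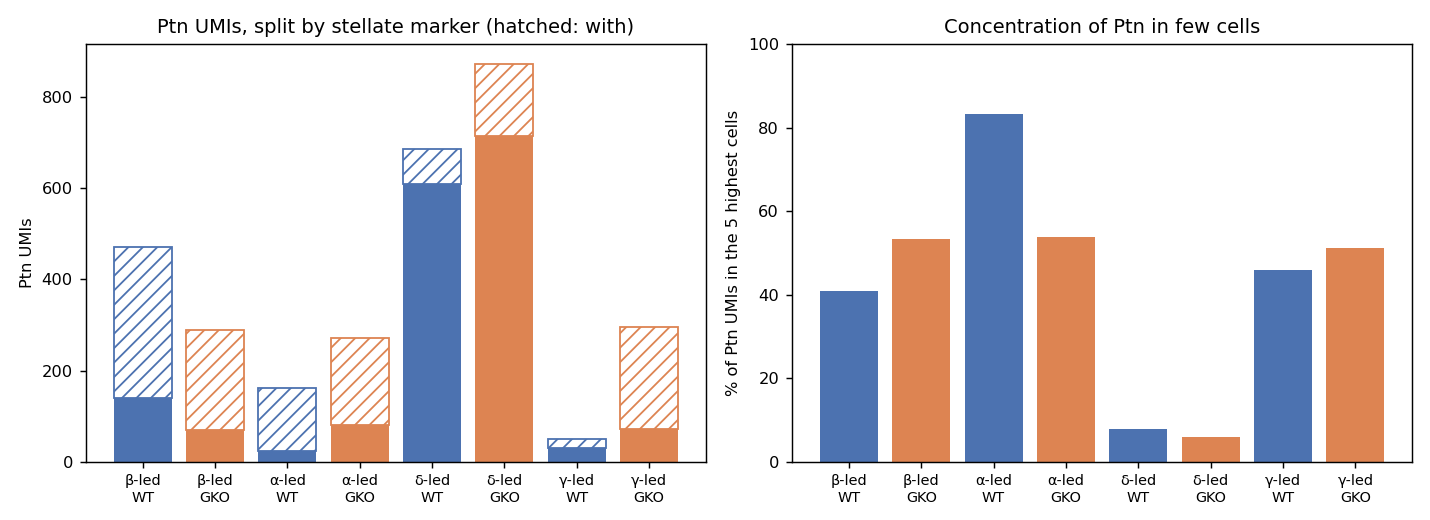
Left, Ptn UMIs in the 4 hormone-led classes of each library, with the hatched part in cells that also held a UMI of any of 8 activated stellate markers; right, percent of the Ptn UMIs of each class that lie in its 5 highest cells. In δ-led cells 610 of 686 WT and 715 of 873 GKO UMIs lie in cells without such a marker, and the 5 highest cells hold under 10%.

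The same markers moved with genotype in δ-led cells as well. They summed to 6.34 CPM in WT and to 48.4 in GKO, with all 8 above 0 in both libraries, Dcn the highest of them at 24.4 CPM in GKO, and 6.72% and 11.9% of cells holding at least 1 UMI. In the δ-led cells without any, Ptn stood at 39.45 CPM in 1319 WT cells and 74.95 CPM in 884 GKO cells, a log2 ratio of 0.93, and was found in 24.6% and 37.0% of them. The difference in δ-led cells was therefore about as large without those cells. This was not particular to δ-led cells, as β-led cells stood at 2.23 and 3.64 CPM without them and at 5.29 and 8.81 with them. Without those cells Ptn was higher in GKO in each hormone-led class. The γ-led log2 ratio of 2.71 (2.27 to 3.17), in contrast, dropped to 1.60. The α-led value had no stable direction: it was 0.38 (0.09 to 0.67) as counted, 1.51 without those cells, −0.63 without called doublets and −1.003 when the leading hormone had to reach 20%.

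The barcodes under 500 genes, 356 in WT and 494 in GKO, can hold free RNA as well as poor cells. They held 9 Ptn UMIs in WT, 13.2 CPM (6.05 to 25.1), and 22 in GKO, 30.4 CPM (19.1 to 46.0). Dcn in the same barcodes stood at 42.7 and 263.9 CPM. In GKO its 191 UMIs lay in 24 of these barcodes, whereas Ins2 was found in 99.6% of them, so this profile does not measure free stellate RNA by itself.

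Ptn fell as the Sst share of a δ cell rose. With hormones left out of the total, cells with 10 to 15% Sst held 80.1 CPM of Ptn in WT and 160.1 in GKO, and those with 15 to 20% held 58.5 and 125.1. At 20 to 25% Sst the levels were 44.5 and 53.8 CPM, a log2 ratio of 0.27 (−0.09 to 0.64). At 25% or more they were 12.35 and 42.8 CPM, a log2 ratio of 1.79 (0.76 to 2.93), resting on 11 and 31 UMIs. When the leading hormone had to reach 20%, the log2 ratio of Ptn in δ-led cells dropped to 0.44, under the limit, and the difference in the share of cells with a Ptn UMI from 12.8 to 3.18 percentage points.

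Just outside the 10% limit lay a cluster of 78 cells per library with δ markers and less Sst. Its leading genes began with Nrsn1 and Ppp1r17 and included Arg1 and Neurog3. It held 188.2 CPM of Ptn in WT and 417.4 in GKO on the same scale, but 62.2% and 53.6% of those UMIs lay in 5 cells, and the stellate markers summed to 2035 and 4728 CPM of all its UMIs. Without the cells that held these markers its Ptn level was 96.7 (72.9 to 125.9) and 159.8 (128.3 to 196.6) CPM, which did not differ beyond the intervals from that of the next Sst range, at 76.0 and 154.3. Sdc2 and Sdc4 showed no such steady decline with Sst. Sdc2 ranged from 92.1 to 118.9 CPM in WT and from 118.7 to 131.3 in GKO over the 5 ranges, and Sdc4 from 71.5 to 78.1 in WT and from 68.7 to 81.7 in GKO over the 4 ranges within δ-led cells, while in the cluster with under 10% Sst it was higher, at 126.6 and 127.1.

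**Figure D3:**
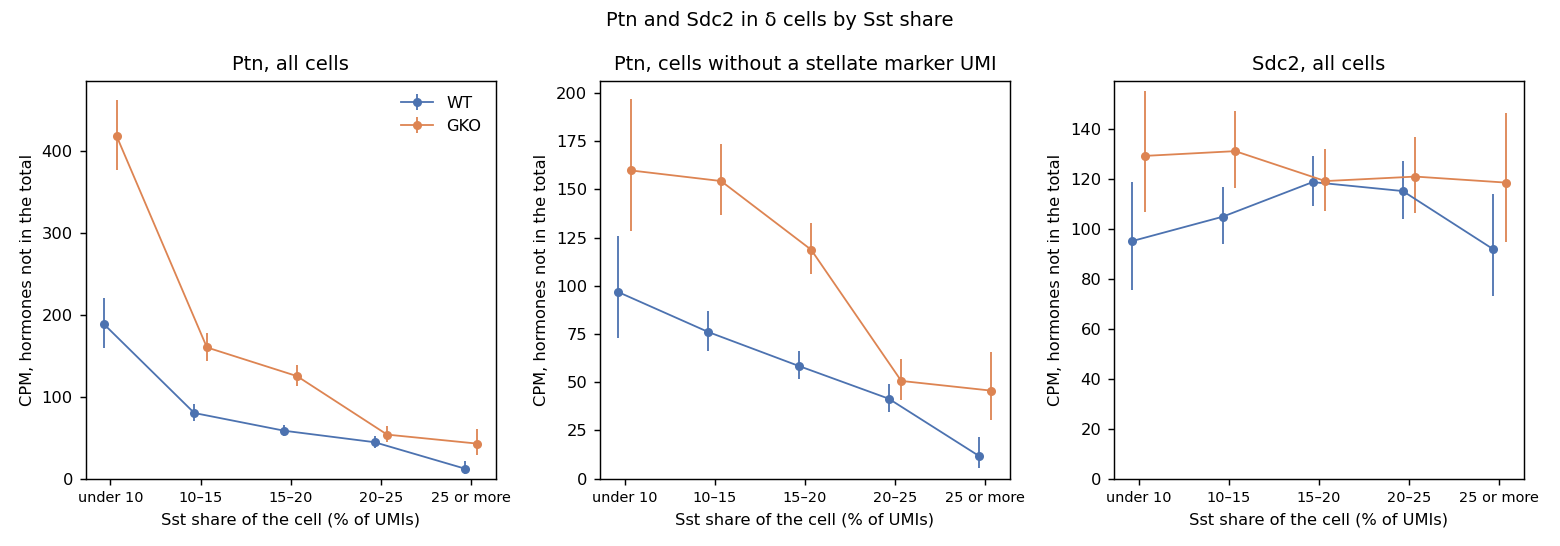
Level of Ptn in all δ cells (left), in those without a UMI of 8 activated stellate markers (middle) and of Sdc2 in all δ cells (right), by the share of Sst among the UMIs of the cell, in CPM of a total without hormones, with 95% Poisson intervals (WT blue, GKO orange). Ptn declines from left to right in both libraries, and Sdc2 shows no such decline. The libraries' Ptn intervals overlap at 20 to 25% Sst and do not overlap at 25% or more.

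In the remaining endocrine classes the Ptn ratio rested on few cells. In β-led cells it was 0.74 (0.52 to 0.95) on the log2 scale, with 6.05% of genes higher past the limit and 4.99% lower. That value was 0.35, under the limit, when each cell called a doublet with the settings of the study was left out, and 1.43 with another doublet setting. The study itself removed doublet clusters and not each called cell, so 0.35 is not the value under its filter. The γ-led ratio stood among 5.8% of genes higher and 3.27% lower. In the α-like cells with under 10% Gcg, 5 UMIs in WT faced 18 in GKO, and the unnamed endocrine cluster had 26 and 109 UMIs, of which 5 cells held 73.1% and 80.7%.

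Among classes past the limit, the opposite direction was found in endothelial-like cells, with 29 Ptn UMIs in 545 WT cells and 3 in 421 GKO cells. The log2 ratio was −2.88 (−5.24 to −1.19). Here 93.1% of the WT UMIs lay in 5 cells, 1.28% of WT cells held any, and without limits on genes or mitochondrial UMIs the log2 ratio was −1.03. Of the genes tested in this class 5.31% were higher and 4.74% lower. Below the limits on cells or UMIs, Ptn was also lower in dendritic-like cells (36 and 5 UMIs, 34 of the 36 in 1 cell) and quiescent stellate-like cells (9 and 6). It was higher in the Upk3b+ cluster (17 UMIs in 25 WT cells, 238 in 57 GKO cells, 73.1% of the 238 in 5 cells). In proliferating-like cells (8 and 18 UMIs) the log2 ratio was 1.79 (0.52 to 3.20). Ductal-like cells had 2 UMIs in 29 WT cells and 16 in 85 GKO cells, a log2 ratio of 1.51 (−0.58 to 4.67), an interval that spans both directions.

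Mdk, like Ptn, was highest in stellate cells. Activated stellate-like cells held 424 UMIs in WT, 196.1 CPM (177.9 to 215.7), and 684 in GKO, 164.4 CPM (152.3 to 177.2), which made up 50.1% and 60.0% of all Mdk UMIs. Within the class Mdk followed another order than Ptn. Cluster 17, low in Ptn, had the highest level at 393.3 and 454.1 CPM, and cluster 5 stood at 117.3 and 112.3. Among small classes, the Gpr37l1+ cells held 234.3 and 104.0 CPM on 19 and 8 UMIs, a Upk3b+ cluster 143.9 and 93.3, and ductal-like cells 49.3 and 35.8.

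Among the 11 classes with at least 50 cells in each library, quiescent stellate-like cells, the pericyte-like cells with Pdgfrb and Rgs5, came next in WT. In GKO the δ-like cells with under 10% Sst stood above them at 33.7 CPM (23.5 to 46.9), with overlapping intervals. Quiescent stellate-like cells held 48.2 CPM (35.7 to 63.7) of Mdk in WT and 23.7 (17.9 to 30.9) in GKO. The log2 ratio of −1.02 (−1.61 to −0.44) was past the limit, in a class where 11.6% of genes were higher and 7.0% lower. Within cluster 1, the largest of the class, it was −1.09 (−1.81 to −0.39). In cluster 9, 7.39% of the class in WT and 25% in GKO, it was 0.44 (−1.61 to 3.59) on 2 and 19 UMIs.

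In hormone cells Mdk was sparse. β-led cells held 0.58 and 0.73 CPM, γ-led cells 1.68 and 1.80, and α-led cells 4.62 and 4.64. In δ-led cells 50 WT UMIs gave 2.99 CPM (2.22 to 3.94) and 61 GKO UMIs gave 5.55 (4.25 to 7.13), a log2 ratio of 0.89 (0.33 to 1.46), and 5 GKO cells held 27.9% of the UMIs. The δ-like cells with under 10% Sst had 10 UMIs in WT and 35 in GKO, of which 5 cells held 90.0% and 74.3%. The stellate markers of that cluster, 2035 and 4728 CPM, moved with this difference, and their part in it was not tested. In that cluster 14.1% of genes were higher past the limit and 9.87% lower.

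Sdc1, the syndecan of epithelial and plasma cells, was concentrated in a few small populations. Cluster 9 of the quiescent stellate-like cells, led by Chrdl1 and Actg2, held Sdc1 in all of its 15 WT cells and 96.2% of its 105 GKO cells. Its level went from 387.6 CPM in WT to 546.3 in GKO, a log2 ratio of 0.50 (0.06 to 0.97). Cluster 1 of the same class stood at 28.6 and 48.5 CPM, and cluster 12 had no Sdc1 UMI in WT and 1 in GKO.

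Quiescent stellate-like cells as a whole held 63.0 CPM of Sdc1 in WT against 218.2 in GKO, a log2 ratio of 1.79 (1.42 to 2.19). Cluster 9 made up 7.39% of the class in WT and 25% in GKO, so the ratio of the class joins a difference in level with a difference in the share of cluster 9. Without cluster 9 the log2 ratio was 0.83. With the doublets called under the settings of the study left out it was 4.23.

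Outside stellate cells, Sdc1 stood at 67.8 and 105.8 CPM in ductal-like cells. It stood at 110.7 and 255.4 in the Tff3+ cluster, which had 44 cells in WT and 9 in GKO. That cluster was left unnamed, though all 7 listed ductal markers were detected in it. Sdc1 supplied 49.15% and 37.0% of the syndecan UMIs of B cell-like cells, which numbered only 59 in WT and 73 in GKO. The leading genes of that cluster include the plasma cell genes Jchain and Mzb1. No Sdc1 UMI was found in 178 WT and 425 GKO R-macrophage-like cells, which by the same limit allows up to 1.69% and 0.706% of cells with a UMI. In δ-led cells 46 UMIs in WT and 48 in GKO gave 2.75 and 4.37 CPM, a log2 ratio of 0.67 (0.05 to 1.28). Ptn, Mdk and Sdc1 were thus the 3 of 6 genes higher past the limit in δ-led cells, and none was lower, against 4.72% and 4.26% of all genes tested there. No gene of the 6 passed it in α-led cells, where 4.72% of genes were higher and 4.68% lower.

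**Figure D4:**
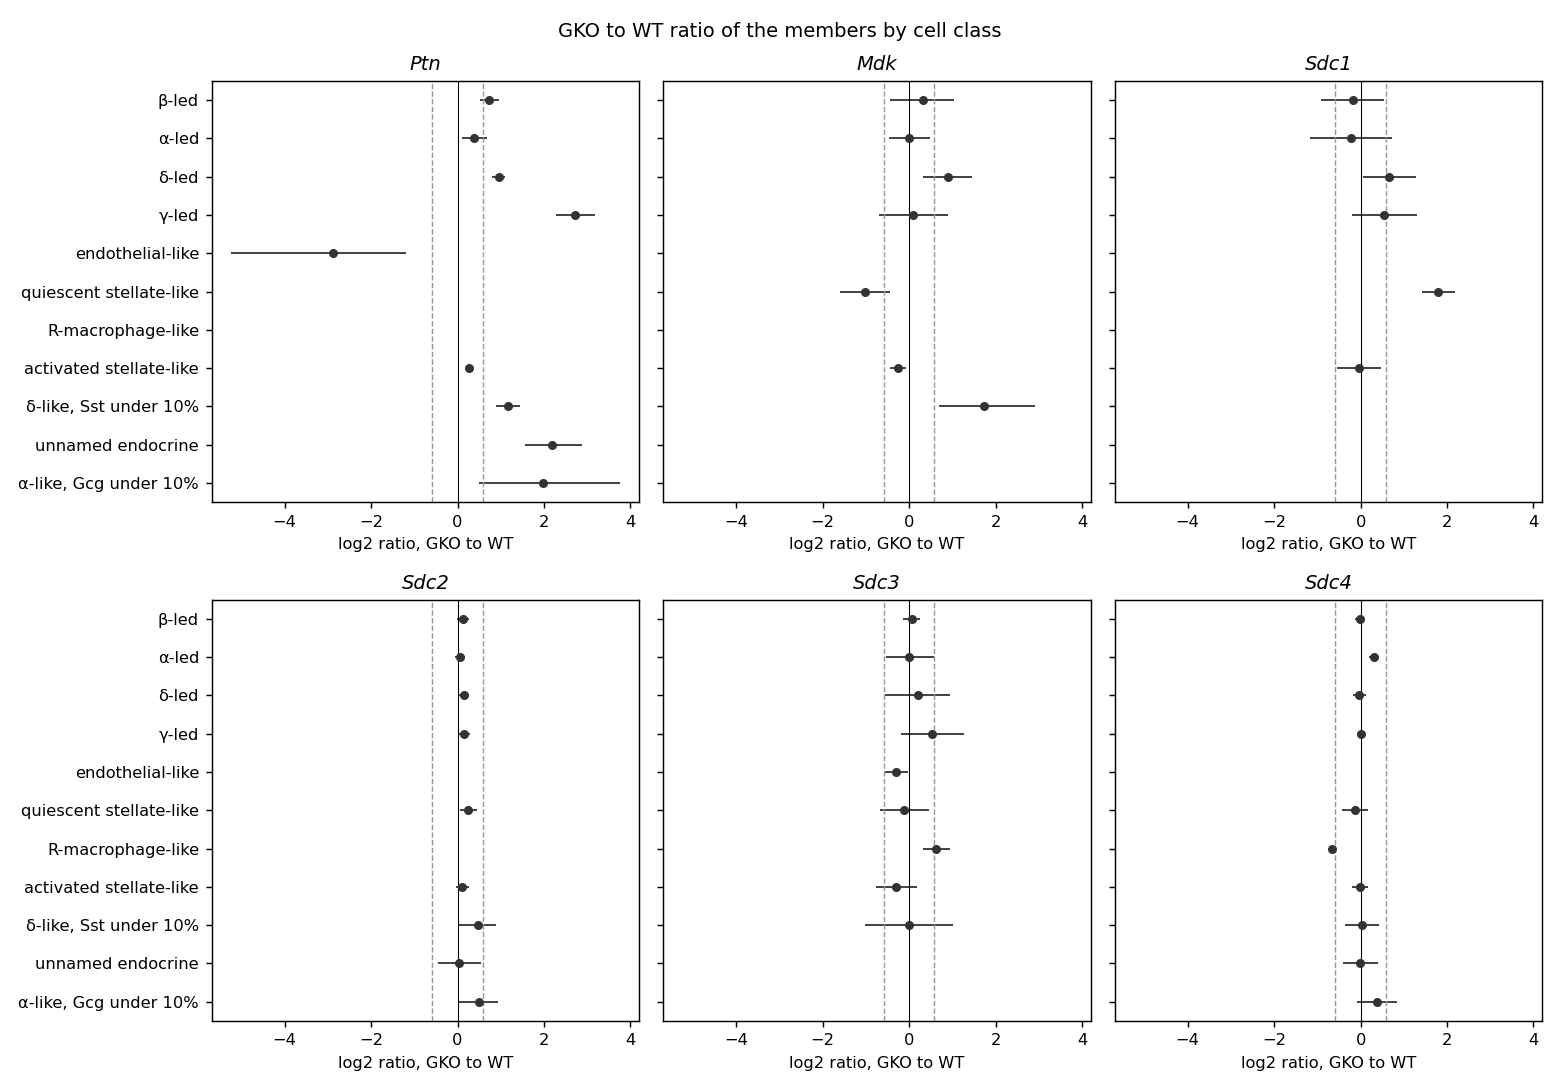
Ratio of GKO to WT for the 6 genes by cell class on the log2 scale, with exact 95% intervals for counting error, where a class held at least 20 UMIs over both libraries and UMIs in each; dashed lines mark a ratio of 1.5 either way. Ptn lies to the right of 0 in the endocrine classes and to the left in endothelial-like cells, and Sdc2 lies between the dashed lines in every class shown.

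Sdc2, the main syndecan of fibroblasts, was high in both stellate classes and present in every hormone-led class. Quiescent stellate-like cells held 277.5 CPM in WT and 329.9 in GKO, and activated stellate-like cells 258.6 and 279.3, with overlapping intervals between these classes in WT. α-led and δ-led cells followed and did not differ beyond their intervals in WT (79.9 and 81.2 CPM) or in GKO (82.8 and 89.9). γ-led cells held 52.8 and 58.9 CPM and β-led cells 16.7 and 18.1, each below the class before it in both libraries on totals that include the hormones. TMM factors, by which totals can be scaled, were 0.71 and 0.72 in γ-led against 1.04 and 1.06 in δ-led cells. A lower factor raises the level, so the step from δ-led to γ-led cells rests on the total used.

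No Sdc2 ratio passed the limit in the 9 classes with at least 20 UMIs. In the hormone-led classes the log2 ratios ran from 0.05 in α-led to 0.16 in γ-led cells, where the median of all genes tested was 0.05 and 0.06. Endothelial-like cells had 4 and 2 Sdc2 UMIs and R-macrophage-like cells 2 and 17.

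Sdc3, the syndecan first known from nerve tissue, was the endothelial and myeloid member. Endothelial-like cells (Pecam1, Plvap) held 71.3 CPM (63.6 to 79.7) in WT and 58.0 (50.1 to 66.8) in GKO. R-macrophage-like cells held 63.9 (52.9 to 76.4) and 98.9 (89.5 to 109.1), so the order of these classes differed between the libraries, with overlapping intervals in WT. Dendritic-like cells stood at 115.4 CPM in 45 WT cells and 174.0 in 80 GKO cells, and Gpr37l1+ stellate-like cells at 234.3 and 104.0 on 19 and 8 UMIs.

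Among hormone cells Sdc3 was highest in β-led cells, at 8.66 and 9.05 CPM, against 3.45 and 3.47 in α-led, 2.21 and 2.55 in δ-led and 1.74 and 2.51 in γ-led cells. It was the only one of the 4 syndecans with its highest hormone-led level in β-led cells in both libraries.

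Sdc4, which organizes focal adhesions, was highest in R-macrophage-like cells among the 11 classes with at least 50 cells in each library. Among smaller classes, ductal-like and Upk3b+ cells overlapped their level in WT and stood above it in GKO. R-macrophage-like cells held 1963 UMIs in WT, 1054 CPM (1008 to 1102), and 2684 in GKO, 664 CPM (639 to 689), a log2 ratio of −0.67 (−0.75 to −0.58). Sdc3 went the other way in the same cells, with a log2 ratio of 0.63 (0.33 to 0.94). In this class 17.7% of genes were higher past the limit and 4.73% lower.

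The clusters of the class differed. In cluster 3, Sdc4 stood at 1123 CPM in WT and 649.8 in GKO, a log2 ratio of −0.79 (−0.89 to −0.69), and in cluster 6 it was 790.6 and 686.0, a log2 ratio of −0.20 (−0.39 to −0.02). Cluster 3 made up 77.0% of the class in WT and 56.9% in GKO. For Sdc3 the log2 ratios within the clusters were 0.43 (−0.00 to 0.87) and 0.21 (−0.22 to 0.66), and its level was 44.0 and 59.2 CPM in cluster 3 against 140.0 and 162.0 in cluster 6. The Sdc3 ratio of the class was thus larger than that of either cluster.

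Hormone cells ranked differently for Sdc4. γ-led cells held 158.7 CPM in both libraries, on 2740 and 2469 UMIs, with a log2 ratio of 0.00 (−0.08 to 0.08). α-led cells held 77.7 CPM (73.2 to 82.3) in WT and 95.9 (91.5 to 100.5) in GKO, a log2 ratio of 0.30 (0.20 to 0.41) that stayed under the limit. δ-led cells held 54.6 and 53.4 CPM and β-led cells 30.2 and 29.9. On totals that include the hormones, the order γ, α, δ, β was the same in both libraries, without overlap between neighbours. The TMM factors were 0.48 and 0.51 in β-led cells against 1.04 and 1.06 in δ-led cells, in WT and GKO. Scaling by them raises β-led levels against δ-led ones, so the order of δ and β rests on the total used.

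Ductal-like cells held 978.1 CPM (892.2 to 1070) of Sdc4 in 29 WT cells, with an interval that overlapped that of the macrophages, and 1398 CPM (1336 to 1462) in 85 GKO cells, above them. A Upk3b+ cluster held 1075 CPM (989.8 to 1166) in 25 WT cells and 772.3 CPM (714.6 to 833.5) in 57 GKO cells. Its interval overlapped that of the macrophages in WT and lay above it in GKO. Gpr37l1+ stellate-like cells held 900.3 and 559.0 CPM in 15 and 12 cells, and the Tff3+ cluster 736.5 and 420.1 in 44 and 9. Endothelial-like cells had 11 and 6 UMIs.

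Seen together, the syndecan UMIs of a class had a profile of their own. Because capture can differ between the 4 genes, these shares compare classes and libraries and do not rank the syndecans within a class. Sdc3 made up 93.9% and 92.8% of them in endothelial-like cells, in WT and GKO. Sdc4 made up 94.2% and 86.55% in R-macrophage-like and 73.9% and 71.3% in γ-led cells. In δ-led cells Sdc2 supplied 57.7% and 59.85%, in α-led cells Sdc2 and Sdc4 supplied 49.2% and 47.8% in WT and 45.15% and 52.3% in GKO, and in β-led cells Sdc3 reached 15.4% and 15.7%. All 4 syndecans together came to 56.3 and 57.8 CPM in β-led cells and to 214.8 and 222.4 CPM in γ-led cells.

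**Figure D5:**
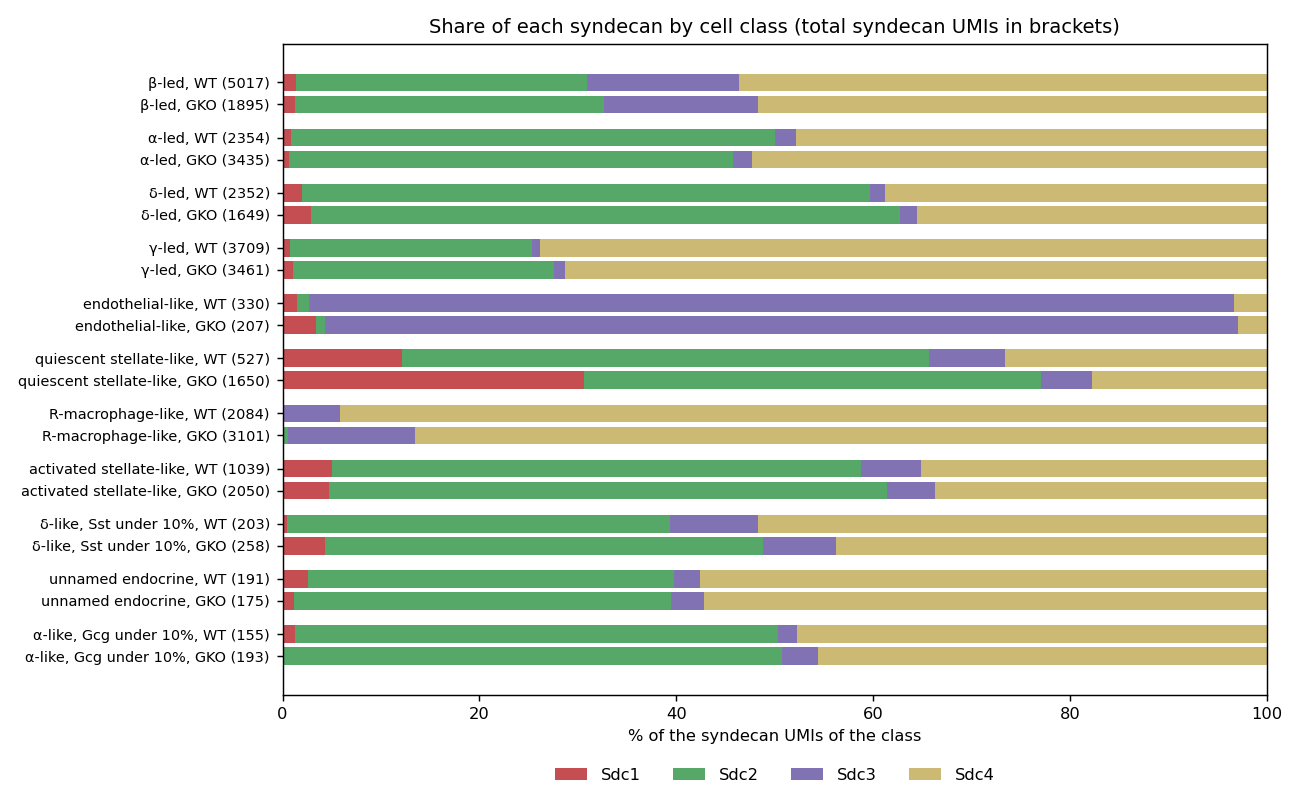
Share of Sdc1 to Sdc4 among the syndecan UMIs of each class and library, in percent, with the number of syndecan UMIs in brackets. The hormone-led classes keep nearly the same profile in both libraries, quiescent stellate-like cells hold 12.1% Sdc1 in WT and 30.7% in GKO, and endothelial-like cells are almost wholly Sdc3.

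Over the 22 sums of class and library, which share 2 libraries and differ in depth, Ptn and Mdk followed each other with a Pearson r of 0.73 on log2(CPM + 1), and Mdk and Sdc2 with 0.78. Sdc2 and Sdc3 ran against each other at −0.43. Sdc1 and Sdc3, the pair with the most alike tail bases, had an r of 0.17, and Sdc2 and Sdc4 one of 0.36. Of 11982 genes compared, the 3 most like Ptn were Dnm1 (0.91), Vcan (0.91) and Cilp (0.89), and for Mdk they were Pla1a (0.95), Scn7a (0.95) and Serping1 (0.94). For Sdc1 they were Actn1 (0.96), Cyp7b1 (0.94) and Gucy1a2 (0.94), for Sdc2 Rtn2 (0.96), Gstt1 (0.95) and Pdgfrl (0.95), for Sdc3 Pmepa1, Ssfa2 and Plk3 (0.94 each), and for Sdc4 Irs2 (0.92), Mt1 (0.90) and Cd63 (0.85).

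The 76 further genes of heparin-binding growth factor signalling came in 5 lists. Of the 15 receptors of pleiotrophin and midkine, 12 had enough UMIs in δ-led cells, with a median log2 ratio of 0.08 against 0.03 for all genes. Of all genes tested there, 4.72% were higher past the limit and 4.26% lower. Of the 12 receptors, 0 were higher and 2 lower. The 2 lower ones were Nrp1, a coreceptor of semaphorins and VEGF, at 23.7 and 14.6 CPM, and the integrin subunit Itgav at 12.45 and 8.01. Ptprz1, the receptor phosphatase that binds pleiotrophin, stood at 134.4 CPM in WT and 162.8 in GKO δ-led cells, and at 10.7 CPM or less in β-, α- and γ-led cells of either library. δ-led cells were thus, among hormone-led cells, highest in both Ptn and Ptprz1. In γ-led cells Ptprz1 was 3.59 and 7.13 CPM, past the limit, as was the laminin receptor subunit Itga6 (8.28 and 12.5), while Nrp1 was lower (14.7 and 6.81). In the unnamed endocrine cluster, where 13.1% of genes were higher and 7.43% lower, Ptprz1 was 39.2 and 68.4 CPM and Nrp1 103.0 and 7.48. R-macrophage-like cells had more of the endocytic receptor Lrp1 (48.9 and 80.1 CPM) and the Wnt coreceptor Lrp6 (32.2 and 53.2). In that class 17.7% of genes were higher past the limit and 4.73% lower, and the median log2 ratio of all genes was 0.17. Neither Lrp1 nor Lrp6 was split by cluster, and cluster 3 made up 77.0% of the class in WT and 56.9% in GKO. In α-led cells Itga4 was higher (3.24 and 5.18).

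Of the 12 other proteoglycans, 10 had enough UMIs in δ-led cells, with a median log2 ratio of −0.05. Of the 10, 1 was higher past the limit and 2 lower, against 4.72% and 4.26% of all genes tested there. Hspg2, the basement membrane proteoglycan perlecan, was lower in β-led (4.41 and 2.68 CPM), α-led (7.17 and 4.00) and δ-led cells (6.04 and 2.19). It stood at 1089 and 901.5 CPM in endothelial-like cells. In γ-led cells 5 of 10 were higher and 1 lower, against 5.8% and 3.27% of all genes tested there, with a median log2 ratio of 0.64 against 0.06 for all genes. In the same cells the 8 activated stellate markers summed to 54.7 CPM in WT and 174.1 in GKO, with 20.2% and 30.6% of cells holding at least 1 UMI, and their part in this result was not tested. Of those 6, the TGF-β coreceptor Tgfbr3 (2.20 and 4.24 CPM) and the granule proteoglycan Srgn (11.5 and 7.58) had 100 UMIs or more. Srgn was also lower in activated stellate-like cells, at 25.9 and 11.3 CPM.

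Of the 26 genes of heparan sulfate synthesis, 19 had enough UMIs in δ-led cells, with a median of −0.07. Of the 19, 1 was higher and 1 lower, against 4.72% and 4.26% of all genes tested there. Elsewhere Hs3st1, a sulfotransferase, was lower in α-led cells (8.14 and 4.48 CPM). The chain-starting enzyme Extl3 was lower in quiescent stellate-like cells (62.0 and 29.3), where the chain polymerase subunit Ext1 was higher (27.6 and 43.1). In that class 11.6% of genes were higher and 7.0% lower. Neither Extl3 nor Ext1 was split by cluster, and cluster 9 made up 7.39% of the class in WT and 25% in GKO. The sulfotransferase Hs6st1 was higher in R-macrophage-like cells (11.3 and 21.5), where 17.7% of genes were higher and 4.73% lower. Hs2st1 was lower in activated stellate-like cells (53.2 and 35.3). The linker enzyme B3gat3 was higher in α-like cells with under 10% Gcg (67.8 and 102.5), a class where 12.9% of genes were higher and 8.74% lower.

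Of the 12 genes that edit heparan sulfate or shed syndecans, 7 had enough UMIs in δ-led cells, with a median of −0.09. Of the 7, 0 passed the limit either way. Of all genes tested in δ-led cells, 4.72% were higher and 4.26% lower. Timp3, a metalloproteinase inhibitor, was lower in β-led cells (11.7 and 4.94 CPM) and in δ-like cells with under 10% Sst (139.3 and 84.7). Its level in endothelial-like cells was 3517 and 2723 CPM. Mmp9, a secreted gelatinase, was higher in R-macrophage-like cells (31.7 and 71.0), a class where 17.7% of genes were higher and 4.73% lower. Of the 11 cytoplasmic partners, all had enough UMIs in δ-led cells and 1 was lower, the Rac exchange factor Tiam1, at 57.3 and 24.1 CPM, a log2 ratio of −1.25 (−1.45 to −1.05). Tiam1 went the other way in endothelial-like (23.9 and 36.2) and activated stellate-like cells (22.2 and 35.8). The membrane linker Ezr was lower in R-macrophage-like cells (105.2 and 57.6) and the adhesion adaptor Pxn lower in α-led cells (14.3 and 8.06).

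Summed over the 11 classes, the 6 genes passed the limit in 15 of 51 combinations of gene and class, 12 higher (23.5%) and 3 lower (5.88%), and the 76 listed genes in 106 of 549, 58 higher (10.6%) and 48 lower (8.74%). Over all genes tested in these classes 8.78% of combinations were higher and 5.8% lower. Of the 12, 7 concerned Ptn, among them the R-macrophage-like cells with no WT UMI, for which no ratio is given. The set was chosen with the higher Ptn level in GKO δ cells known, so these counts only describe it. The medians over the members with enough UMIs were 0.44 in δ-led and 0.34 in γ-led cells, against 0.03 and 0.06 for all genes, and 0.09 in β-led and 0.03 in α-led cells, against 0.08 and 0.05.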

How the data were processed

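Single-cell RNA of islet cells was measured in 1 WT and 1 GKO library, each from 4 mice pooled. The authors aligned reads to mm10 with Cell Ranger and deposited raw UMI counts per gene and barcode (file header: cellranger 5.0.1), and the annotation release was not given in the sources used here. The study removed free RNA with CellBender and doublet clusters before its own analysis. The deposited matrices carry the header of Cell Ranger and name no later correction, and neither step was applied to them here, so shares and class names rebuilt here can differ from those of the study. No columns of other samples were present.

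Counts were read with Python 3.11.15 and scipy 1.17.1. Barcodes under 500 genes or over 10% mitochondrial UMIs were dropped. Hormone-led classes used the 10% rule. The remaining cells were clustered (2000 variable genes without the 6 members, 20 components, 20 neighbors, leidenalg 0.10.2 at resolution 1). Names came from markers when at least 3 were detected in at least 25% of cells and the leading genes did not go against the name. UMIs were summed by class and library and divided by the total of the class. Class sums of classes with at least 50 cells in each library were compared as ratios with exact intervals at the 95% level. With 1 library per genotype no test across samples exists and no p-value is given. A share of 0 is given with the limit that 3 counts allow. All intervals cover counting error only. The ratio and calling steps were tested on simulated data. The simulated sums were Poisson draws, as the intervals assume, without variation between cells or libraries, so they check the computation only.

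Doublets were called by the share of artificial doublets among neighbors, set to mark 7.6% of cells (540 in WT, 482 in GKO), with the settings the study states (pK 0.27 in WT, 0.005 in GKO) and with pK 0.01 in both, and were left out only as alternatives. The study used its doublet calls to remove clusters, whereas these alternatives left out each called cell. Scaling by TMM used edgeR 4.0.16 in R 4.3.3. Members and gene lists were chosen with earlier results of these data known. Named pathway genes were those past the fold limit with at least 100 UMIs over both libraries, plus Ptprz1 levels by class, Hspg2 and Timp3 levels in endothelial-like cells and the marker genes, which were chosen after their values were seen. Alternatives covered barcode limits, the hormone share, second hormones, doublets, totals, scaling, weight of cells, depth, free RNA, the fold limit and low counts, and 2 more, without cells holding stellate markers and without cluster 9, were chosen after seeing the data. Sequences and positions came from GENCODE vM21 on GRCm38.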

Additional observations from a re-analysis of the deposited data

Results flagged for a closer look

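Ptn differed in direction between endothelial-like cells, where its log2 ratio of GKO to WT was −2.88 on 29 and 3 UMIs, and 6 endocrine classes past the fold limit, where it was 0.74 in β-led, 0.95 in δ-led, 2.71 in γ-led, 1.17 in δ-like cells with under 10% Sst, 2.19 in the unnamed endocrine cluster and 1.97 in α-like cells with under 10% Gcg. Each genotype is 1 library, so each class gives 1 ratio, which shows nothing about agreement between samples, and the difference was not tested. In endothelial-like cells 93.1% of the 29 WT UMIs lay in 5 cells. α-led cells were not among the 6, with a ratio of 0.38 and no stable direction over the alternatives. Mdk was likewise higher in δ-led cells (0.89) and in δ-like cells with under 10% Sst (1.73, where the summed stellate markers were 2035 and 4728 CPM), and lower in quiescent stellate-like cells (−1.02), and that difference was not tested either. A search for samples far from their group was not possible with 1 library per group.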

How the results depend on the processing

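The log2 ratio of Ptn in δ-led cells was 0.95, and over the 16 alternatives that could change it ran from 0.44 to 1.05. Only a leading hormone of at least 20% took it under the fold limit, to 0.44, and it took the difference in the share of δ-led cells with a Ptn UMI from 12.8 to 3.18 percentage points. The 15 combinations of the 6 genes and classes past the limit became 9 at a fold limit of 2 and 26 with no filter on low counts, and the 106 of the listed pathway genes became 41, 235 and, with at least 50 UMIs, 60. Of the 12 gene and library pairs, 8 to 12 kept their highest class over the alternatives. The 8 arose with the doublet settings of the study, which lost activated stellate-like cells as a class, so the Ptn and Mdk pairs could not keep theirs. Of 643 single ratios recomputed, 602 stayed within the counting interval, 41 did not, and 0 called ratios changed sign. Among those outside, Ptn in γ-led cells was 1.69 without doublets called by the settings of the study and 6.04 after a profile from the barcodes under 500 genes, which may include poor cells, was subtracted as free RNA, and Ptn in β-led cells was 1.16 after thinning; the cause was not tested. Those doublet calls removed activated stellate-like cells as a class, with 456 of the 540 WT calls outside the hormone-led cells. No paired analysis was possible because each genotype has 1 library. Depth limits Mdk and Sdc1 in hormone cells, where 20 to 87 UMIs a library stand behind each level.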
